A study of Sus scrofa with 12 samples.

Results

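The miR-17-92 cluster and its paralogs were followed in porcine mesenchymal stem cells (MSCs) and in the extracellular vesicles (EVs) that these cells released. Members were the mature miRNAs of the deposited tables named miR-17, miR-18a, miR-18b, miR-19a, miR-19b, miR-20a, miR-20b, miR-25, miR-92a, miR-92b, miR-93, miR-106a, miR-106b or miR-363, with any arm. This gave 13 of the 326 mature miRNAs listed, from 11 of the 14 names, and miR-25, miR-93 and miR-106b were not analysed here. The libraries came from 3 female domestic pigs aged 3 months, without any genetic change or treatment. MSCs were primary cells from abdominal fat, grown with platelet lysate and used at passage 3, and the EVs were spun down from the culture medium by ultracentrifugation. By the pig labels, small RNA and mRNA were each sequenced from the MSCs and the EVs of every pig. Each group thus held 3 libraries, with 1 replicate number per pig.

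The miR-17-92 cluster is a single transcript that is cut into several miRNAs, known for driving cell proliferation under the control of MYC and for shaping blood vessel growth. Its paralog on the X chromosome, miR-106a-363, carries near copies of the same miRNAs, and miR-92b stands on its own. The mature miRNAs fall into seed families, which share the bases that pair with a target: the miR-17 family (miR-17-5p, miR-20a, miR-20b and miR-106a) acts on cell cycle and TGF-beta pathway mRNAs, the miR-18 family (miR-18a and miR-18b) on matrix and TGF-beta mRNAs, the miR-19 family (miR-19a and miR-19b) on inhibitors of cytokine signalling, and the miR-92 family (miR-92a, miR-92b-3p and miR-363) on integrin alpha 5 and on KLF factors. The 2 remaining members, miR-17-3p and miR-92b-5p, are the opposite arms of their hairpins.

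The mRNA table, which the labels place on the susScr3 genome build, listed hairpins of all 3 loci. On the plus strand of chromosome 11, MIR18A (66610195 to 66610286), MIR19A (66610343 to 66610424), MIR20A (66610513 to 66610583), MIR19B-1 (66610642 to 66610721) and MIR92A-1 (66610762 to 66610841) lay within 647 bases. On the minus strand of chromosome X, MIR363, MIR19B-2, MIR18B and MIR106A spanned 126199347 to 126200263, or 917 bases. MIR92B was on the minus strand of chromosome 4, at 103407102 to 103407181. All 10 hairpin entries had 0 reads in the mRNA libraries, and each miRNA below was read in the small-RNA libraries.

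Libraries stood apart before any comparison. MSC libraries held 9455607 to 15395871 miRNA counts, and EV replicates 1, 2 and 3 held 656888, 19454 and 18374. A count of 0 therefore allowed up to 4.57, 154 and 163 CPM (counts scaled by the authors to the library total) in EV replicates 1, 2 and 3, with 3 counts as the limit. Mature miRNAs with a count numbered 268 or 269 in MSC libraries and 128, 79 and 187 in EV replicates 1, 2 and 3. EV replicate 1 thus listed fewer miRNAs than EV replicate 3 at a larger total. Limits and fold bounds drawn from its total could therefore be too strict, which was not tested. miR-21 took 74.4% of the counts of MSC replicate 3, against 28.8% and 33.5% in the other two. The trimmed mean (TMM) scaling factors were 0.306 in MSC replicate 3 and 3.24 in EV replicate 3, and lay between 0.813 and 1.19 in the other libraries. Titles of both replicate 3 small-RNA libraries take another form than those of replicates 1 and 2. They hold an identifier unlike the pig label, and what this marks is not stated. A difference of that pig and a difference in handling cannot be told apart. Among MSC markers in the mRNA libraries, CD44 had 3603 to 10023 reads, NT5E 900 to 1816 and ENG only 44 to 114, and THY1 was at 0. Of the EV markers, CD63 had 8359 to 19616 reads, whereas CD9 had 4 to 7 and ITGB1 1 to 3. The paper reports the proteins of THY1 in the MSCs and of CD9 and ITGB1 in the EVs. Few or no reads of a gene here need not mean that its mRNA was absent. Whether the annotation or the counting missed reads was not tested. The endothelial marker PECAM1 had 111 to 215 reads in MSCs and 20 to 78 in EVs. The monocyte marker CD14 had 416 to 771 and the leukocyte marker PTPRC 2 to 10 over both groups. The paper describes the MSCs as negative for these markers, which it read on cells rather than as mRNA.

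The members took a small share of MSC miRNA and a large share of 1 EV library. They made up 0.642%, 0.58% and 0.408% of the counts of MSC replicates 1, 2 and 3 over 1 entry per mature miRNA. In EV replicate 1 the share was 0.41% (95% Wilson interval 0.394% to 0.426%) and in EV replicate 2 it was 0.234% (0.172% to 0.319%). In EV replicate 3 it was 15.3% (14.7% to 15.9%). The third EV library was thus above all others, while EV replicate 1 lay at the low end of the MSC range and EV replicate 2 below it. Intervals and limits cover counting error only. Less RNA per vesicle or cell and fewer vesicles or cells cannot be told apart in these bulk libraries.

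**Figure D1:**
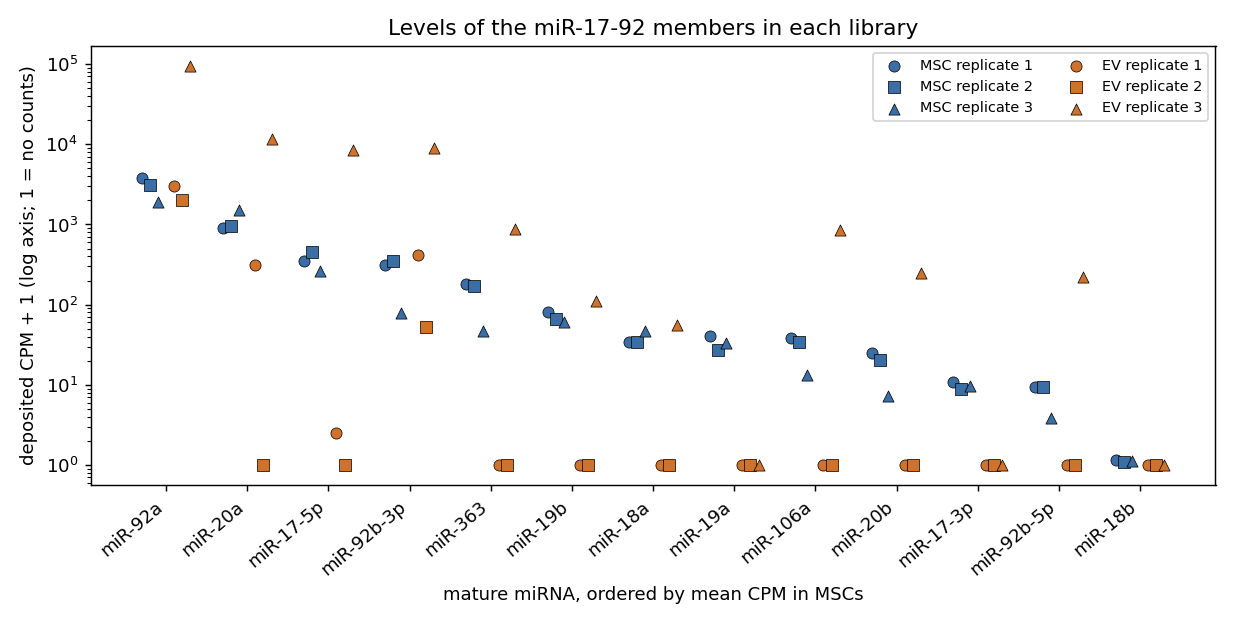
Deposited CPM + 1 (log axis) of the 13 members in each library, with MSCs in blue, EVs in orange and a marker shape per pig; a value of 1 means no counts. EV replicate 3 lies above the MSC libraries for 10 members, of which miR-18a and miR-19b rest on 1 and 2 counts, and 8 members with MSC counts that passed the filter are at 1 in EV replicates 1 and 2.

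miR-92a was the most abundant member in all 6 libraries. Its level was 3761, 3095 and 1906 CPM in MSC replicates 1, 2 and 3, which ranked it at 32, 33 and 23 among the miRNAs of each library. In EV replicates 1, 2 and 3 it was 3042, 2005 and 94887 CPM, from 1998, 39 and 1743.5 counts. EV replicates 1 and 2 lay within the MSC range, and in EV replicate 3 miR-92a was the most abundant miRNA of the library. The MSC mean was 2920.3 ± 939.7 CPM (SD, n = 3) and the EV mean 33311 ± 53329 CPM.

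The other members of the miR-92 family separated in the EVs. miR-92b-3p, from its own locus, was at 313, 351 and 78.3 CPM in MSCs and at 417, 51.4 and 9034 CPM in EVs, so that the groups overlapped. The value of EV replicate 2 rested on 1 count. miR-363, the last miRNA of the X-linked cluster, was at 182, 172 and 46.1 CPM in MSCs and at 0, 0 and 871 CPM in EVs. In CPM, it was at least 39.9-fold lower in the EVs of replicate 1 than in its MSCs, by the limit of 3 counts in that library. In replicate 2 the same limit gave at least 1.11-fold lower in CPM. TMM scaling moved the EV level of miR-92a there from 0.648 to 0.961 times the MSC level. A bound of 1.11-fold does not outlast such a shift, so miR-363 is not shown to be lower in replicate 2 after TMM scaling. In replicate 3 it was 18.9 times the MSC level in CPM and 2.11 times after TMM scaling.

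In the miR-17 family, miR-20a and miR-17-5p carried most of the counts. miR-20a was at 896, 948 and 1508 CPM in MSCs and at 312, 0 and 11665 CPM in EVs. miR-17-5p, cut from the same transcript, was at 345, 448 and 259 CPM in MSCs and at 1.52, 0 and 8481 CPM in EVs. Both were lower in EV replicates 1 and 2 than in any MSC library and higher in EV replicate 3. The single count of miR-17-5p in EV replicate 1 put it 227-fold below MSC replicate 1 (95% Poisson interval of the EV count, 40.7-fold to 8960-fold). In replicate 2 the EV level in CPM was at least 2.90-fold lower for miR-17-5p and at least 6.15-fold lower for miR-20a.

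The X-linked members of the miR-17 family were scarcer. miR-106a was at 37.9, 33 and 12.3 CPM in MSCs and at 0, 0 and 862 CPM in EVs. miR-20b was at 24.1, 19.6 and 6.2 CPM in MSCs and at 0, 0 and 245 CPM in EVs. Both had no count in EV replicates 1 and 2, which left them at least 8.31-fold (miR-106a) and 5.27-fold (miR-20b) below MSC replicate 1. In EV replicate 2 the limit of 154 CPM was above their MSC levels, so a difference was not detectable at this depth.

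The miR-18 and miR-19 families had few or no counts in the EV libraries, of which only EV replicate 1 had a total large enough for their MSC levels. miR-19b, which both clusters encode, was at 80.3, 64.6 and 59.4 CPM in MSCs and had 0, 0 and 2 counts in EVs. miR-19a had 603, 380 and 307 counts in MSCs (39.2, 25.8 and 32.5 CPM) and 0 counts in every EV library. miR-18a had 505, 485 and 439 counts in MSCs (32.8, 32.9 and 46.4 CPM) and 0, 0 and 1 counts in EVs. In EV replicate 1, the deepest, all 3 had no count. By the limit of 3 counts they were at least 17.6-fold (miR-19b), 8.58-fold (miR-19a) and 7.18-fold (miR-18a) lower than in its MSCs. These bounds rest on the total of that library, which listed 128 mature miRNAs beside 187 in EV replicate 3. EV replicates 2 and 3 were too shallow for these levels in CPM: the single miR-18a count of EV replicate 3 corresponded to 54.4 CPM. miR-18b was listed at 2.5, 1.5 and 1 counts in MSCs and 0 in EVs, and did not pass the filter on low counts.

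Summed by family, the miR-92 family made up 74.3%, 69.5% and 51.2% of the members' counts in MSC replicates 1, 2 and 3. Its share was 91.7% (90.5% to 92.7%) in EV replicate 1, 40 of 40 counts in EV replicate 2 and 82.9% (81.3% to 84.4%) in EV replicate 3. All 3 EV libraries were above all 3 MSC libraries. The miR-17 family took 22.8%, 27.8% and 45% in MSCs and 8.31%, 0% and 16.8% in EVs, where the 0 of 40 allows up to 7.5%, and all EV libraries were below all MSC libraries. The miR-19 family took 1.74% to 2.32% in MSCs and 0%, 0% and 0.0861% in EVs, and the miR-18 family 0.575% to 1.17% in MSCs and 0%, 0% and 0.0431% in EVs. These shares sum to 100%, so a higher share of 1 family lowers the others, and no test was made on them. They count 1 entry per mature miRNA, so members with 2 hairpin entries could weigh too little. In CPM, the miR-92 family averaged 3301 ± 1146 in MSCs and 36769 ± 58914 in EVs, the miR-17 family 1512 ± 247 and 7189 ± 12180.0, the miR-19 family 101 ± 16.4 and 36.3 ± 62.8, and the miR-18 family 37.5 ± 7.83 and 18.1 ± 31.4 (SD, n = 3 each). The scaling moved these means: in TMM-scaled CPM the miR-17 family averaged 2868 ± 2711 in MSCs and 2778 ± 4486 in EVs, which turned the direction, and the miR-92 family 4760 ± 1809 and 15461 ± 20637.

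**Figure D2:**
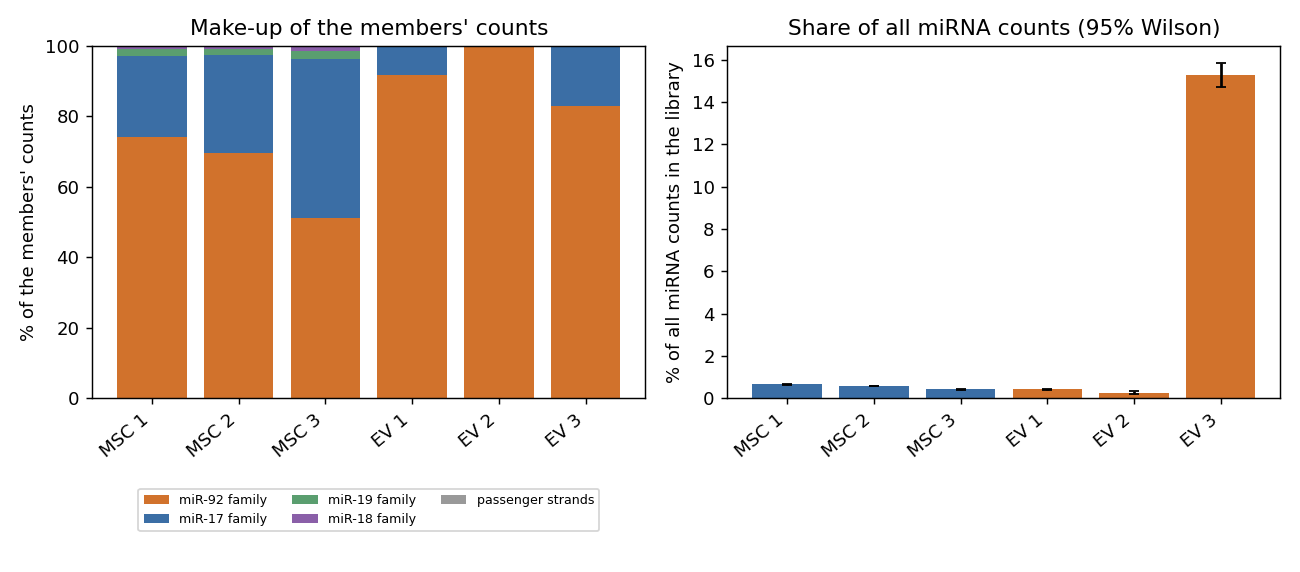
Left, percent of the members' counts in each seed family per library, with bars stacked to 100%; right, percent of all miRNA counts taken by the members, with 95% Wilson intervals. The miR-92 family takes 51.2% to 74.3% in MSCs and at least 82.9% in EVs, and the members' share reaches 15.3% in EV replicate 3 alone.

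Among MSCs, the order of mean levels was miR-92a, miR-20a, miR-17-5p, miR-92b-3p, miR-363, miR-19b, miR-18a, miR-19a, miR-106a, miR-20b, miR-17-3p, miR-92b-5p and miR-18b. All 3 libraries kept the steps from miR-92a to miR-20a (2.61-fold in the means), from miR-20a to miR-17-5p (3.19-fold), from miR-19b to miR-18a (1.82-fold) and from miR-92b-5p to miR-18b, without overlap of the ranges. The other 8 neighbouring pairs had overlapping ranges. Only 1 of 2 hairpin entries was used for miR-92a, miR-19b, miR-363 and miR-20b. Because such entries shared reads, these members could be understated beside those with 1 entry. Their places and the steps beside them hold for the entry used, and no order was set with both entries. The same order could not be set in EVs, where 9 of the 12 members below miR-92a were at 0 in both EV replicates 1 and 2 (8 of those tested, beside 41.4% of all miRNAs tested). Mature miRNAs are of nearly one length, so CPM was compared between them without a length term.

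The comparison of the groups used edgeR's quasi-likelihood test with TMM scaling over the 220 miRNAs that passed the filter, 12 of them members. With a fold change over 2 and a Benjamini-Hochberg adjusted p under 0.05, 0 members were higher and 0 lower, as for all miRNAs tested (0.0% in each direction). By the study's thresholds, a fold change over 2 and an unadjusted p under 0.05, 0 members were higher (background 6.36%) and 2 lower (background 24.1%), namely miR-19a and miR-17-3p. Their adjusted p was 0.0813 (miR-19a) and 0.0859 (miR-17-3p). Both were at 0 in all EV libraries, so their fitted log2 fold changes of -11.38 (SE 3.10) and -9.49 (SE 2.74) depend on the prior count and are no bound. With the pig as a replicate block, 0 members were lower at the unadjusted threshold (background 6.36%). The count of 2 became 0 without EV replicate 1 (background 17.3%) and 9 without EV replicate 3 (background 46.1%). It became 1 without MSC replicate 1 (background 9.78%), 2 (8.79%) or 3 (13.2%), where miR-17-3p no longer passed the filter. At the unadjusted threshold miR-92b-5p was higher without EV replicate 1 (background 8.47%) and miR-92b-3p without EV replicate 2 (background 3.63%). With library totals alone, miR-19a and miR-17-3p were lower (background 17.7%) and miR-92a was higher (background 6.36%). At the adjusted threshold, edgeR's exact test placed miR-19a lower (background 11.8%), and limma on log2(CPM + 1) placed miR-19a and miR-17-3p lower (background 16.4%).

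The 10 other members tested had fold changes smaller than their spread allowed to call. Log2 fold changes (EVs over MSCs) were 2.16 for miR-92b-3p (SE 1.37, adjusted p = 0.348 in edgeR) and 1.71 for miR-92a (SE 1.15, adjusted p = 0.379). miR-106a was at 1.64, miR-92b-5p at 1.66, miR-17-5p at 0.98 and miR-20b at 0.39. miR-20a was at -0.51, miR-363 at -0.54, miR-19b at -3.17 and miR-18a at -3.95, with adjusted p-values in edgeR from 0.248 for miR-18a to 0.909 for miR-20b. The signs of miR-20a and miR-363 turned under other scalings: with library totals alone, which moved the median of all miRNAs from -0.999 to 0.0031, miR-20a was at 1.999 and miR-363 at 1.22. The median over the 12 members was -0.06, with 6 above and 6 below 0, beside 80 above and 140 below 0 over all miRNAs tested.

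The fold changes turned on EV replicate 3. Without it, edgeR placed 8 members lower (background 39.5%) and 0 higher (background 8.23%) at the adjusted threshold among 243 miRNAs tested. The 8 were miR-17-5p, miR-18a, miR-19a, miR-19b, miR-20b, miR-106a, miR-363 and miR-92b-5p. Among them, miR-17-5p was at -8.21 (SE 1.30, adjusted p = 0.0131 in edgeR) and had 1 count in the 2 remaining EV libraries, and the other 7 were at 0 in both. miR-92a was then at -0.50 (SE 0.66, adjusted p = 0.534) and miR-92b-3p at 0.09 (SE 0.88, adjusted p = 0.933), and miR-20a at -3.35 (SE 1.66, adjusted p = 0.146).

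**Figure D3:**
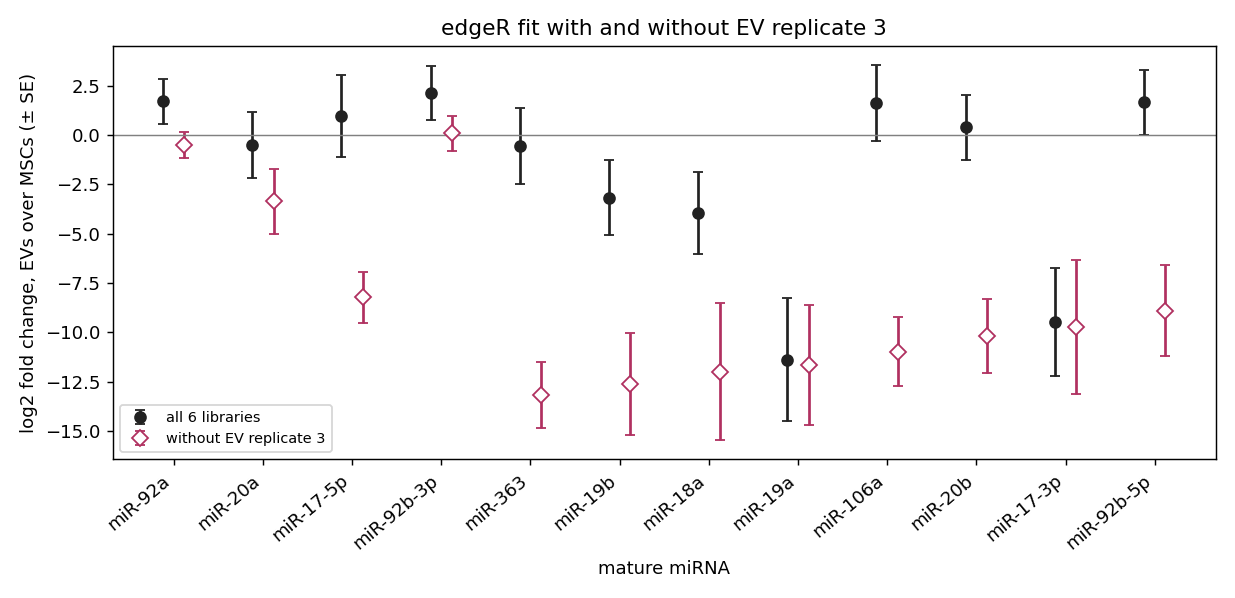
Log2 fold change (EVs over MSCs) with its SE from edgeR for the 12 members tested, with all 6 libraries (filled) and without EV replicate 3 (open). miR-92a and miR-92b-3p stay between -0.50 and 2.16, while 7 of the members move below -8 without that library; values for members with no EV counts are fitted from the prior count and are no bound.

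Within pigs the direction split in the same way. In CPM, the EV level of miR-92a was 0.809 and 0.648 times the MSC level in replicates 1 and 2 and 49.8 times in replicate 3. After TMM scaling the values were 1.04, 0.961 and 5.56 times. miR-20a was at 0.348 times the MSC level in replicate 1 and 7.74 times in replicate 3 in CPM, but at 0.448 and 0.862 times after TMM scaling, so its direction in replicate 3 depended on the scaling. miR-92b-3p was at 1.33 times in replicate 1 and 115 times in replicate 3 in CPM, and at 1.72 and 12.9 times after TMM scaling. In replicate 2, on 1 EV count, it was at 0.146 times the MSC level in CPM (95% Poisson interval 0.00371 to 0.815). EV replicate 3 was above every MSC library in CPM, on over 3 counts, for 8 of the 12 members tested, beside 39.5% of all 220 miRNAs. With EV counts under the limit of 3 set to it, EV replicate 1 was below every MSC library for 9 members (background 45.0%). EV replicates 1 and 2 were both below for 2, miR-17-5p and miR-20a (background 12.7%). By the listed CPM, 0 members had every EV library above every MSC library (background 6.82%) and 2 had every one below (background 23.6%), miR-19a and miR-17-3p, whose zeros in EV replicates 2 and 3 are under limits above their MSC levels. Members with no EV counts passed the filter through their MSC counts, so these counts describe the members and test nothing.

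Relative to miR-92a of the same library, which takes no scaling, the cluster was unequal in EVs. For every 1000 counts of miR-92a, miR-20a had 238, 306 and 791 counts in MSCs and 103, 0 and 122.9 in EVs. miR-17-5p had 91.8, 145 and 136 in MSCs and 0.501, 0 and 89.4 in EVs. All EV libraries were below all MSC libraries for both, also with the 0 of EV replicate 2 set to its limit of 76.9, although for miR-17-5p EV replicate 3 and MSC replicate 1 were close. miR-19b had 20.9 to 31.2 in MSCs and 0, 0 and 1.15 in EVs, miR-18a 8.71 to 24.4 and 0, 0 and 0.574, and miR-19a 8.35 to 17.1 and 0 in all 3. Because only 39 miR-92a counts were read in EV replicate 2, its limit was above the MSC values of these 3 members, and a difference was not detectable there.

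At the ratio of its own MSCs, EV replicate 1 would have held 183.5 counts of miR-17-5p, 476 of miR-20a, 96.9 of miR-363, 42.7 of miR-19b, 20.8 of miR-19a and 17.4 of miR-18a beside its 1998 counts of miR-92a. It held 1, 205, 0, 0, 0 and 0. In EV replicate 3 the same reckoning gave 237, 1379, 42.1, 54.3, 29.7 and 42.5, and the library held 155.83, 214.33, 16, 2, 0 and 1. Both libraries therefore held few or none of the miR-18a, miR-19a and miR-19b counts of that ratio, and they differed for miR-17-5p. miR-92b-3p went the other way, with 274 counts where the MSC ratio gave 166 in EV replicate 1 and 166 where it gave 71.7 in EV replicate 3. Its 137, 25.6 and 95.2 counts per 1000 in EVs overlapped with 83.2, 114 and 41.1 in MSCs. With EV counts under the limit set to it, 8 of the 11 other members tested were below every MSC library in EV replicates 1 and 3 on this scale, beside 45.7% of the 219 other miRNAs. In all 3 EV libraries 2 were below, miR-17-5p and miR-20a (background 14.2%), and 0 were higher (background 0.457%). This scale and the setting of low counts to their limit were chosen after the values were seen, and with 3 libraries against 3 an exact permutation test cannot go below 0.1, so none was run.

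**Figure D4:**
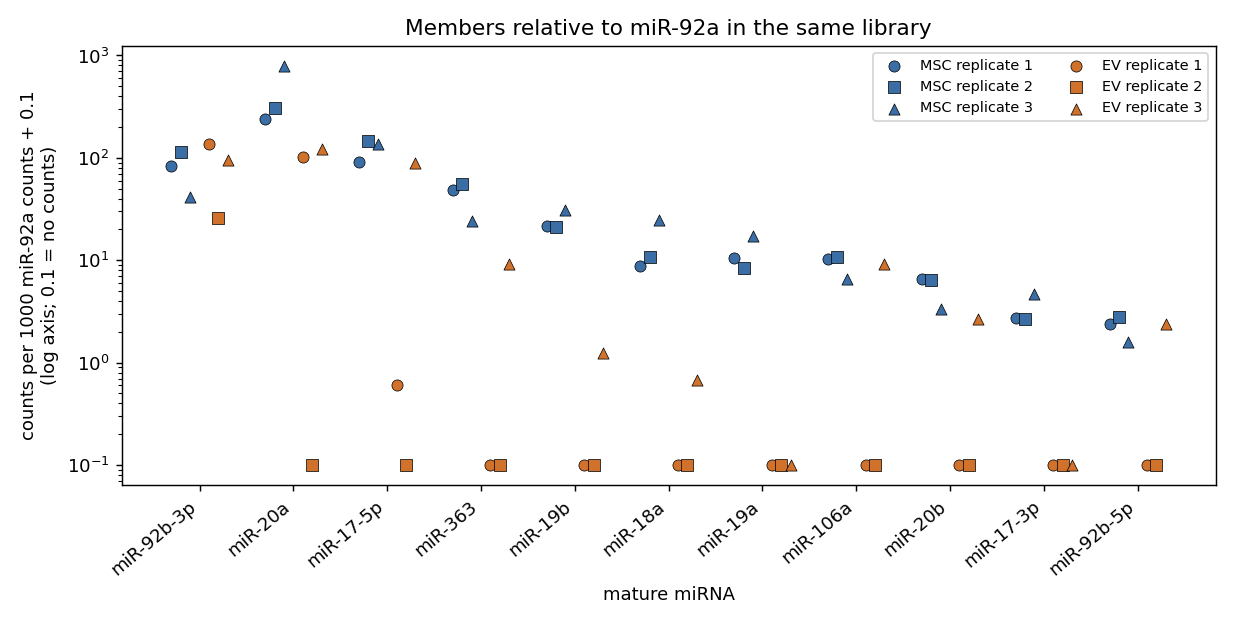
Counts of each member per 1000 miR-92a counts of the same library, + 0.1 (log axis), with MSCs in blue, EVs in orange and a marker shape per pig; 0.1 means no counts. miR-92b-3p overlaps between groups, whereas miR-20a, miR-17-5p, miR-363, miR-19b, miR-18a and miR-19a are lower in EV replicates 1 and 3; the zeros of EV replicate 2 allow up to 76.9.

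miR-17-5p and miR-20a come from hairpins of the same transcript and share a seed, yet their balance varied among libraries. miR-17-5p took 27.8%, 32.1% and 14.7% of their joint counts in MSC replicates 1, 2 and 3. It took 0.485% (95% Wilson interval 0.0857% to 2.70%) in EV replicate 1 and 42.1% (37.2% to 47.3%) in EV replicate 3, so the 2 EV libraries lay on either side of the MSC range. EV replicate 2 had no count of either.

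The opposite arms were minor wherever they could be read. miR-17-3p was at 9.94, 7.89 and 8.67 CPM in MSCs and took 1.73% to 3.24% of the counts of both miR-17 arms there. In EV replicate 3 it had 0 counts beside 155.83 of miR-17-5p, which allows up to 2.40% (upper Wilson bound) and reaches the MSC range. miR-92b-5p took 2.31% to 3.52% of both miR-92b arms in MSCs and 2.35% in EV replicate 3 (4 counts, 0.919% to 5.89%). In EV replicate 1 it had 0 counts beside 274 of miR-92b-3p, with an upper bound of 1.38%.

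The X-linked copies contributed little. miR-106a took 9.9%, 6.87% and 4.52% of the joint counts of miR-106a and miR-17-5p in MSCs and 9.22% in EV replicate 3. miR-20b took 2.62%, 2.03% and 0.41% beside miR-20a in MSCs and 2.06% in EV replicate 3 (0.713% to 4.601%). This counts 1 of the 2 equal entries of miR-20b, so its share could be higher. Near-identical miRNAs shared reads in fractions, as 58.2% of the members' values above 0 were not whole, so the split between these copies is uncertain.

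miR-92a is encoded by both clusters and was listed once for each hairpin. The MIR92A-1 entry, used above, held more counts than the MIR92A-2 entry by 12.1%, 10.5% and 8.61% of its counts in MSC replicates 1, 2 and 3. The excess was 28.2% (95% Wilson interval 26.3% to 30.2%) in EV replicate 1, 0 of 39 in EV replicate 2 and 8.2% (7.0% to 9.58%) in EV replicate 3. EV replicate 1 was above the other libraries. For miR-19b the 2 entries differed by at most 2.84%, and those of miR-363 and of miR-20b were equal.

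The miRNA with the pattern most like that of miR-92a was itself a member. Over the 6 libraries, the root mean square difference between TMM-scaled log2 levels, each centred on its own mean, was 0.85 for miR-92b-3p, the smallest among the miRNAs tested. Outside the cluster, miR-30d (1.11), miR-423-5p (1.25) and miR-345-5p (1.26) were nearest. The value of miR-345-5p rests on 1 EV count, as it was at 0, 0 and 54.4 CPM in EVs and 2.38 CPM or less in MSCs. miR-30d was at 8641, 9710 and 2532 CPM in MSCs and at 14286, 8996 and 49661 CPM in EVs. miR-20a (4.19) and miR-17-5p (4.17), from the transcript that holds miR-92a, were at places 181 and 180 of 219. These distances are over 6 libraries that share depth differences, and are a description.

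Because platelet lysate was in the medium, miRNAs that are abundant in platelets and blood cells were read beside the members. Of 8 such mature miRNAs listed, 5 or 6 had a count in each MSC library, 1 in EV replicate 1, 0 in EV replicate 2 and 6 in EV replicate 3. miR-223 was also sought but had no entry of that name, so it could not be read. Their summed level was 88.9, 94.5 and 114 CPM in MSCs and 41.9, 0 and 3837 CPM in EVs. EV replicate 3 was thus above the others for these too, with miR-486 at 45 counts and miR-126-3p at 22, whereas miR-144 was at 0 everywhere, miR-451 had 1 count and miR-142-3p 1 count in that library. The part of these cells in the members' levels was not tested.

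The mRNAs that regulate the cluster or are textbook targets of its seeds were read in the mRNA libraries, which held 10429085 to 12276855 reads on genes. Of 36 such genes, 29 had an entry, 7 of these were at 0 reads, among them HIF1A and STAT3, and 18 passed the filter. HIF1A and STAT3 had 2 entries each, both without reads, and whether the annotation or the counting missed them was not tested. MCM7, the host gene of a further paralog, had no entry under that symbol, and MYC, which drives the cluster, was read 4, 13 and 2 times in MSCs and 3, 1 and 2 times in EVs. In edgeR, 0 of the 18 passed the adjusted threshold in either direction, as for all entries tested (0.0% in each direction). At the unadjusted threshold 0 were higher (background 5.55%) and 1 was lower (background 3.57%). The median log2 fold change was 0.27 over the 18, beside -0.02 over 12392 entries.

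The gene that was lower was CCN2, a secreted matrix protein and target of the miR-18 seed. MSCs had 6090, 12893 and 5346 reads of it and EVs 429, 209 and 238, lower in EVs of 3 of 3 pigs without overlap. Its log2 fold change was -4.82 (SE 0.56, adjusted p = 0.131 in edgeR), and with the pig as a replicate block, where it passed the adjusted threshold, -4.69 (adjusted p = 0.0116). Under the block 2 genes were lower (background 0.605%) and 0 higher (background 0.492%) at the adjusted threshold. The second, named after its values were seen, was E2F1, a cell cycle factor that activates the cluster and is a target of its miR-17 family, with MSC reads of 496, 66 and 567 and EV reads of 179, 9 and 85 (log2 fold change -2.23, adjusted p = 0.0404 in edgeR with the block and 0.367 without). At the unadjusted threshold the block placed CCN2 and E2F1 lower (background 5.17%) and 1 higher (background 8.01%), MYLIP, a ubiquitin ligase. CCN2 was lower at the unadjusted threshold whichever library was left out. Without MSC replicate 2, E2F1 was lower and MYLIP and VEGFA were higher, and without EV replicate 3, KLF2 was lower, at the same threshold. The share over all entries is not given for fits without 1 library, so these calls cannot be set beside it.

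Targets with the most reads did not pass either threshold. ITGA5, the integrin chain targeted by miR-92a, was read 5654, 9783 and 6070 times in MSCs and 6512, 8275 and 10946 times in EVs, at a log2 fold change of 0.29 (SE 0.41, adjusted p = 0.721 in edgeR). TGFBR2, a TGF-beta receptor targeted by the miR-17 seed, was at 0.72 (SE 0.25, adjusted p = 0.265), with higher levels in EVs of 3 of 3 pigs. VEGFA, the vascular growth factor, was at 0.78 (SE 0.52, adjusted p = 0.451). By list, 0 of 9 miR-17 targets tested, 1 of 2 miR-18 targets, 0 of 1 miR-19 target and 0 of 4 miR-92 targets passed the unadjusted threshold. Over all entries tested, 5.55% were higher and 3.57% lower there. The 1 is CCN2 alone, and lists this short say nothing about the targets of a seed.

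**Figure D5:**
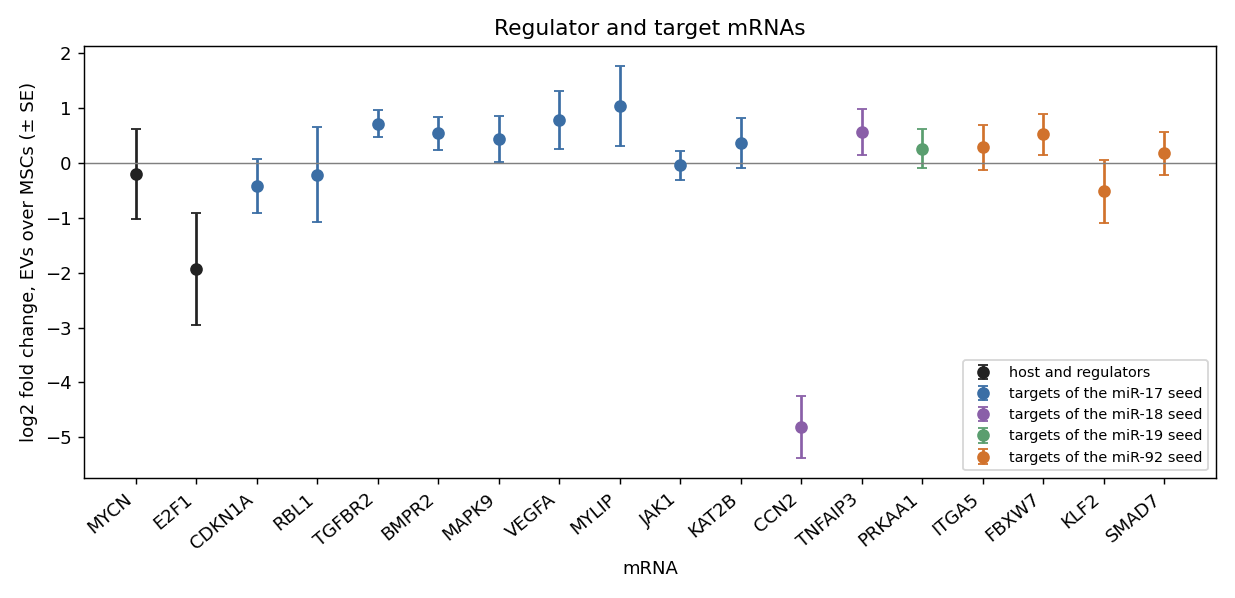
Log2 fold change (EVs over MSCs) with its SE from edgeR for the 18 regulator and target mRNAs that passed the filter, coloured by list. CCN2 at -4.82 stands below the others, which lie between -1.93 and 1.04.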

How the data were processed

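Small RNA and mRNA were sequenced from MSCs and EVs of 3 pigs (12 libraries). For small RNA, the authors deposited estimated counts per mature miRNA and precursor, made with CAP-miRSeq, in which reads matching several precursors were shared between them, and CPM, the same values scaled to the sum of the table column. The submitters' processing notes name cutadapt 0.9.5, Bowtie 0.12.7 and the build susScr3. For mRNA, the authors deposited raw counts, and RPKM values, which were not used here. For the counting after TopHat, the paper names featureCounts, whereas the labels name HTSeq. Of the mRNA entries, 3 that were shifted by a column were left out, and 11804 of 25322 Ensembl identifiers were given symbols from the annotation.

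Each mature miRNA was taken from the entry with the largest total, and the counts were rounded for the tests. EVs were compared with MSCs in edgeR 4.0.16 under R 4.3.3 (TMM, filterByExpr, quasi-likelihood test, Benjamini-Hochberg over all features tested). Members and gene lists were chosen with earlier results of these data known, and 1 gene of the target list is not reported here. All members are named; of the mRNA list, MCM7, MYC, the genes with the largest change per direction at the unadjusted threshold, or else those with the most reads. Alternatives were other scalings, DESeq2 1.42.0, edgeR's exact test, limma 3.58.1 with pseudocounts of 1 and 0.1, no filter, summed precursor entries, the pig as a replicate block, and leaving out each library. Same-pig libraries deviated together in mRNA (r of 0.251, 0.384 and 0.408) but not in small RNA (-0.227, -0.019 and -0.132), and the pairing comes from the pig labels. The titles number the pigs differently in the 2 assays, so pairs were used within an assay only. In small RNA both replicate 3 titles take another form than the rest. Depth was 18374 to 15395871 counts for small RNA. Wilson and Poisson intervals at 95% cover counting error only.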

Additional observations from a re-analysis of the deposited data

How the results depend on the processing

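Members lower in EVs at the adjusted threshold numbered 0 (background 0.0%), but 1 with library totals without miR-21 (7.98%) and 1 with edgeR's exact test (11.8%). They numbered 2 with limma on log2(CPM + 1) or log2(CPM + 0.1) (16.4% in each). Leaving out 1 library gave 0 to 8, with 8 beside a background of 39.5%. At the unadjusted threshold 2 were lower (24.1%), but 1 with DESeq2 (13.6%) and 0 with the pig as a replicate block (6.36%). Leaving out 1 library gave 0 to 9 there, with 9 beside a background of 46.1%. Those higher numbered 0 (6.36%), but 1 with library totals alone (6.36%) and 1 with DESeq2 (12.3%). Leaving out 1 library gave 0 to 1, with 1 beside backgrounds of 8.47% (EV replicate 1) and 3.63% (EV replicate 2).

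Signs of log2 fold changes reversed as follows, and the cause was not tested. With limma at pseudocounts of 1 and 0.1 and with the pig as a replicate block, miR-106a was at -1.45, -3.61 and -2.68, miR-17-5p at -3.63, -4.94 and -4.33, miR-20b at -1.31, -3.42 and -2.41, and miR-92b-5p at -0.21, -2.21 and -1.09. With DESeq2 size factors, library totals alone, library totals without miR-21 and DESeq2, miR-20a was at 0.18, 1.999, 0.79 and 0.18, and miR-363 at 0.34, 1.22, 0.55 and 0.34. Leaving out 1 library gave -10.99 to 2.30 for miR-106a, -8.21 to 1.4996 for miR-17-5p, -3.35 to 0.85 for miR-20a, -10.20 to 1.29 for miR-20b, -13.17 to 0.12 for miR-363, -0.50 to 2.12 for miR-92a and -8.90 to 2.58 for miR-92b-5p. miR-18a, miR-19a, miR-19b and miR-17-3p kept a negative sign, and miR-92b-3p a positive one, under every alternative that tested them.

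Family means in MSCs moved by more than their SD. With TMM-scaled CPM and with totals without miR-21, the miR-17 family was at 2868 and 3429 CPM, the miR-18 family at 72.7 and 86.7, the miR-19 family at 169 and 208, and the miR-92 family at 4760 and 6082. With all precursor entries summed, the miR-19 family was at 168 and the miR-92 family at 6040.1. Family means in EVs moved by less than their SD, which EV replicate 3 sets, but with TMM-scaled CPM they were at 2778 for the miR-17 family, 6.80 for miR-18, 13.6 for miR-19 and 15461 for miR-92, so the miR-17 family was then higher in MSCs.

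Of the mRNA list, 0 were lower at the adjusted threshold (background 0.0%), but 1 with DESeq2, 1 without the filter and 2 with the replicate block (0.605%). At the unadjusted threshold 1 was lower (3.57%), but 2 with DESeq2 and 2 with the block (5.17%). Leaving out 1 library gave 1 to 2. At that threshold 0 were higher (5.55%), but 1 with the block (8.01%) and 0 to 2 leaving out 1 library. The share over all entries is not given for the other settings, so those counts cannot be set beside it. A count of 0 allowed up to 154 and 163 CPM in EV replicates 2 and 3, so lower levels there rest on 3 counts or fewer.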
